A study of Drosophila melanogaster with 4 samples.

Results

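The eggshell assembly and crosslinking genes described here are dec-1, Fcp3C, yellow-g, yellow-g2, Pxd, Pxt, ndl, pip and Cad99C. They are 9 of the 14775 genes with a named RefSeq transcript in the data. They were chosen by name for their known part in building, patterning or hardening the fly eggshell, with earlier results of these data known. The values of all RefSeq transcripts of a gene were summed, 27 transcripts for the 9 genes. RNA was measured in 4 libraries of Drosophila melanogaster ovaries to ask what loss of Piwi, a nuclear Argonaute protein that silences transposons, during embryogenesis does later in the adult ovary. The 2 piwi-embKD libraries came from flies of genotype vasa-GAL80[ts]/+;;da-GAL4/shpiwi, which carry a hairpin against piwi. The 2 white-embKD libraries came from vasa-GAL80[ts]/+;;da-GAL4/shwhite flies, whose hairpin is directed at the eye-colour gene white. Both groups therefore carry the broadly active daughterless GAL4 driver, a temperature-sensitive GAL80 under the germline gene vasa, and a hairpin. Both were kept at 18 °C and moved to 28 °C as embryos. Whether the hairpins were also active in the follicle cells of the adult was not tested. The age of the flies and the number of ovaries pooled are not given in the labels.

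The insect eggshell is secreted in layers by the somatic follicle cells that surround the oocyte. The vitelline membrane is laid down first and the chorion later, and the layers are then hardened by chemical crosslinks between their proteins. Various proteins help to build, pattern or harden these layers, and the 9 genes were chosen for such a part. Ventral follicle cells also leave a mark in the eggshell that later starts the dorsal-ventral signalling of the embryo.

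Levels are normalized effective counts, which are estimated fragment numbers per gene scaled by the authors. They summed to 1017515 and 1004549 in piwi-embKD replicates 1 and 2 and to 989279 and 970339.8 in white-embKD replicates 1 and 2. The piwi gene stood at 238 and 121 in the piwi-embKD libraries and 410.0 and 401 in the white-embKD libraries (log2 change −1.25 ± 0.29 SE, limma adjusted p = 0.0572), so its fall did not pass the threshold of 0.05. The white gene, w, stood at 3.34 and 2.87 in the piwi-embKD libraries and 1.35 and 1.19 in the white-embKD libraries. It did not pass (log2 change 0.86 ± 0.25 SE, limma adjusted p = 0.103). The piwi libraries resembled each other less (r = 0.976 across features) than the white libraries did (r = 0.995). Summed over 8 germline markers, the level was 3740.3 and 4089 in piwi-embKD and 4541 and 4236 in white-embKD. Over 9 follicle cell markers it was 3188 and 3211 in piwi-embKD and 1408 and 1366 in white-embKD. Both cell classes of an ovary were therefore present. Most of the follicle cell sum came from the yolk protein genes Yp1, Yp2 and Yp3. Of the other follicle cell markers, Fas3 had the highest mean, at 32.6 and 34.4 in piwi-embKD and 20.3 and 20.7 in white-embKD. In RNA from whole ovaries, fewer cells of a type and less RNA per cell cannot be told apart.

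Most of the eggshell assembly genes were higher in piwi-embKD ovaries. Of the 9, 8 reached the level needed for testing (a mean of at least 0.995), and all 8 also did so in the white-embKD libraries alone. Of these 8, 6 rose and 0 fell at a limma adjusted p under 0.05: Fcp3C, dec-1, yellow-g, ndl, yellow-g2 and pip. Among all 8172 features tested, 5.04% rose, 1.65% fell and 6.69% passed in either direction. The libraries of the 2 groups did not overlap for any of the 8, with 7 higher and Pxt lower in piwi-embKD. The groups also did not overlap for 59.0% of all features, and 25.9% of all features were higher in this way. The median log2 change was 1.69 over the 8 genes and −0.04 over all features tested. As the genes were chosen with earlier results known, their excess over all features is a description and not a test. Cad99C and Pxt did not pass, and Pxd was listed at 0 in every library. With no filter on low values, which put 16179 features into the adjustment, 0 of the 9 passed in limma. The count also varied when single libraries were left out. Those fits leave a lone library in a group, and the number of all features passing varied widely between them. Counts from such fits below therefore cannot be read against the shares given here.

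**Figure D1:**
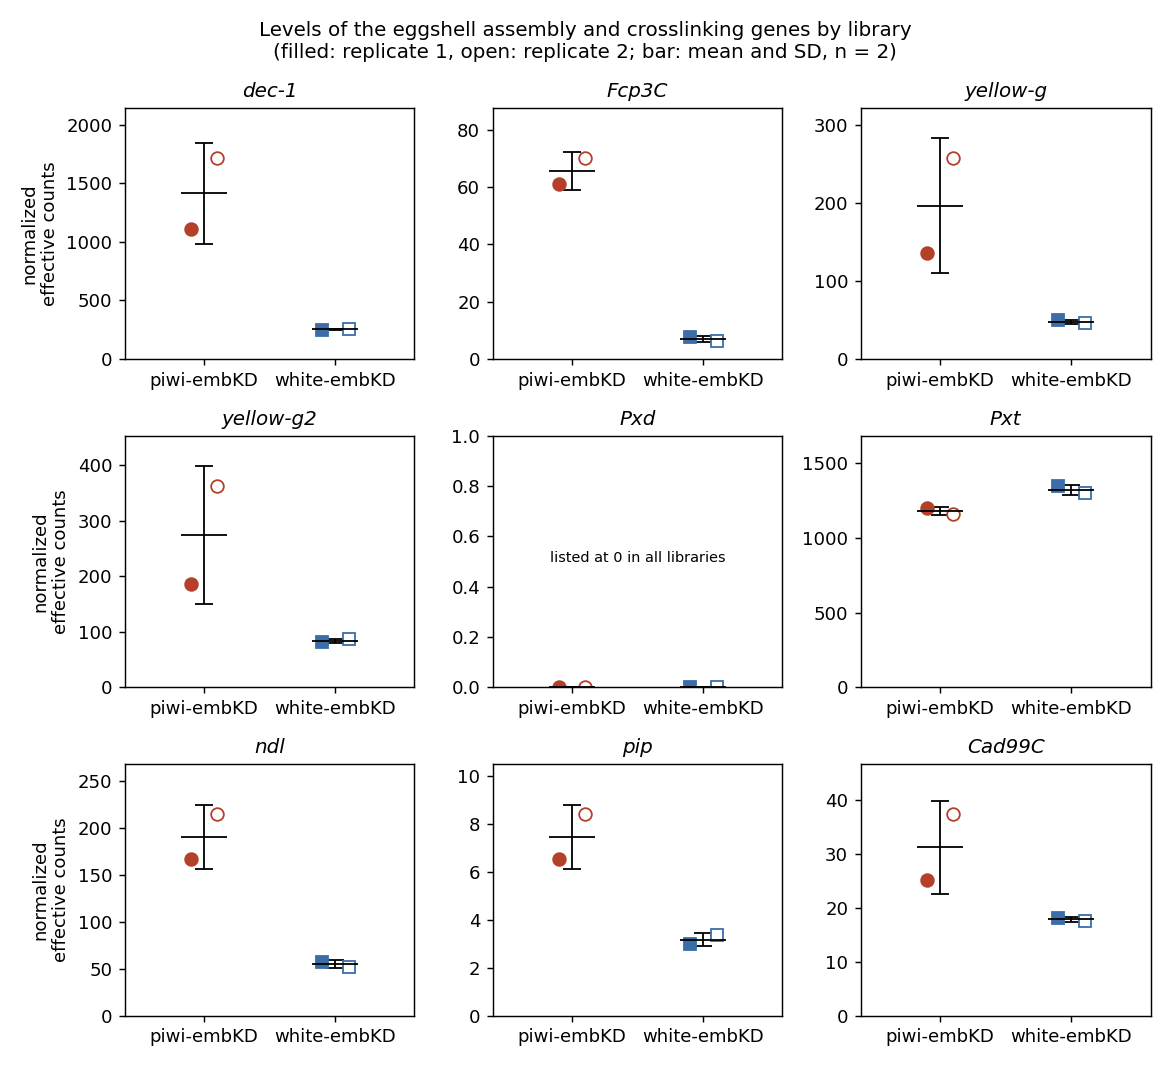
Level of each gene in each library, in normalized effective counts on linear axes that start at 0, with piwi-embKD left of white-embKD; points are libraries and bars the mean and SD (n = 2). In 7 of the 9 panels both piwi-embKD points lie above both white-embKD points, for Pxt both lie below, and Pxd is at 0 throughout.

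The largest changes were in dec-1 and Fcp3C. Fcp3C, named as a follicle cell protein, lies on the X chromosome and has 1 RefSeq transcript, NM_058134. Its level was 60.9 and 70.2 in the piwi-embKD libraries and 7.77 and 6.19 in the white-embKD libraries. The groups were far apart and each pair was close, and the piwi-embKD mean of 65.6 ± 6.58 was 9.40 times the white-embKD mean of 6.98 ± 1.12 (SD, n = 2 each). The log2 change was 3.07 ± 0.16 SE (limma adjusted p = 0.00042), and 30 of the 8172 features tested had a higher one. The white-embKD values rested on 157 and 123 effective counts and the piwi-embKD values on 970.0 and 1150.0.

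The gene dec-1 (defective chorion 1, X chromosome) encodes several secreted proteins that are cut into smaller pieces as the eggshell matures and are needed for the layers to hold together. It had 1111 and 1716 normalized effective counts in the piwi-embKD libraries and 247 and 258 in the white-embKD libraries. Both piwi-embKD libraries were above both white-embKD libraries, and replicate 2 was the higher of the piwi pair. The piwi-embKD mean of 1414 ± 428 was 5.59 times the white-embKD mean of 253 ± 8.03 (SD, n = 2 each), and the change on the log2 scale was 2.45 ± 0.20 SE (limma adjusted p = 0.00165).

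The data held 6 dec-1 transcripts. The transcript NM_167133 held most of the gene's level in every library, 82.8% and 79.3% in piwi-embKD and 77.8% and 76.8% in white-embKD. It stood at 920.2 and 1361 in the piwi-embKD libraries and 192 and 198 in the white-embKD libraries. NM_078517 held 7.99% and 11.8% of dec-1 in piwi-embKD and 11.9% and 13.7% in white-embKD. Fragments that fit several transcripts were divided by a model, so these shares carry an error that the files do not give. When each transcript was its own feature, NM_167133 rose (log2 change 2.51 ± 0.20 SE, limma adjusted p = 0.0223), where 0.548% of all targets rose and 0.615% passed in either direction. The 4 other tested dec-1 transcripts had log2 changes of 2.03 to 2.46 and adjusted p-values of 0.0866 to 0.136.

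The yellow-family genes yellow-g and yellow-g2 encode secreted proteins that are needed for a rigid eggshell and are thought to take part in crosslinking. They lie next to each other on chromosome arm 3L, in a region that follicle cells are known to amplify. The level of yellow-g was 136 and 258 in the piwi-embKD libraries and 49.7 and 45.7 in the white-embKD libraries. That of yellow-g2 was 186 and 362 in the piwi-embKD libraries and 81.5 and 86.3 in the white-embKD libraries. For both genes the groups did not overlap, and piwi-embKD replicate 2 was well above replicate 1, with ratios of 1.90 for yellow-g and 1.94 for yellow-g2. The log2 change was 1.95 ± 0.28 SE for yellow-g (limma adjusted p = 0.0128) and 1.62 ± 0.29 SE for yellow-g2 (limma adjusted p = 0.0264). The call of yellow-g2 was lost with median-of-ratios scaling (limma adjusted p = 0.0528) and without the intensity trend (limma adjusted p = 0.0629). As members of a gene family, the pair may share fragments, which the authors' estimate divides between them.

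Of 12 other yellow-family genes, 11 were too low to test. The remaining one, yellow-k, stood at 5.06 and 4.4 in piwi-embKD and 2.16 and 1.68 in white-embKD and did not pass (log2 change 0.97 ± 0.23 SE, limma adjusted p = 0.0621), though 1 gene of this list did without either piwi-embKD library. The gene on the other side of yellow-g, CG32302, overlaps it in the RefSeq gene spans and was low in every library. CG32302 stood at 0.30 and 0.48 in piwi-embKD and 2.37 and 2.26 in white-embKD, the opposite direction to yellow-g, and did not pass (limma adjusted p = 0.0538). MsR2, beyond yellow-g2, was at 0 in both piwi-embKD libraries and at 0.06 in both white-embKD libraries.

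Neither peroxidase among the 9 rose. Pxd, a peroxidase gene on arm 3R named for its link to chorion hardening, has 3 RefSeq transcripts, and each was listed at 0 in all 4 libraries. A count of 0 allows up to 3 counts, which is a level of 0.188 and 0.183 in the piwi-embKD libraries and 0.148 and 0.151 in the white-embKD libraries, so no difference was detectable at this depth. Pxt, also on arm 3R, encodes a cyclooxygenase-like enzyme needed for prostaglandin signalling in egg chambers. Its level was 1199 and 1164 in the piwi-embKD libraries and 1348 and 1300.1 in the white-embKD libraries. Both piwi-embKD values were below both white-embKD values, by a mean ratio of 0.892, and the change, −0.16 ± 0.10 SE on the log2 scale, did not pass (limma adjusted p = 0.337).

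Of 8 other genes of the haem peroxidase family, 4 were tested and 1 rose, a count that changed without piwi-embKD replicate 1. The 1 gene, CG4009, stood at 218 and 378 in the piwi-embKD libraries and 105 and 99.3 in the white-embKD libraries (log2 change 1.48 ± 0.24 SE, limma adjusted p = 0.02). Its groups did not overlap, and piwi-embKD replicate 2 was again the higher. The call of CG4009 was lost without the intensity trend (limma adjusted p = 0.0525). Among 6 actin regulators of nurse cell dumping, a process that needs Pxt, 1 rose and 1 fell. The myosin heavy chain gene zip rose (log2 change 0.82 ± 0.09 SE, limma adjusted p = 0.00555), and qua, a villin-like gene, fell (log2 change −0.47 ± 0.09 SE, limma adjusted p = 0.0284), and neither passed without either white-embKD library. The list's count also changed when piwi-embKD replicate 1 was omitted.

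Both genes that act on the dorsal-ventral cue rose. Nudel, the product of ndl (arm 3L), is a large secreted serine protease that is needed for the vitelline membrane to be crosslinked and that starts the protease cascade leading to the dorsal-ventral axis. Its level was 166 and 214 in the piwi-embKD libraries and 57.7 and 52.1 in the white-embKD libraries. The groups did not overlap, and the piwi-embKD mean of 190.5 ± 33.9 was 3.47 times the white-embKD mean of 54.9 ± 3.98 (SD, n = 2 each). The log2 change was 1.77 ± 0.14 SE (limma adjusted p = 0.00164), and ndl still passed in each of the 4 fits that omit a library, with log2 changes of 1.58 to 1.95.

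The gene pip (pipe, arm 3L) encodes a sulfotransferase of ventral follicle cells that modifies vitelline membrane proteins. It was the lowest of the genes that rose, at 6.53 and 8.40 in the piwi-embKD libraries and 3.0 and 3.36 in the white-embKD libraries. These levels rested on 104 and 138 effective counts in piwi-embKD and 60.7 and 66.7 in white-embKD, and the groups did not overlap. The log2 change was 1.01 ± 0.21 SE (limma adjusted p = 0.0438), the weakest of the 6 calls. Omitting either white-embKD library ended the call of pip, at a limma adjusted p of 0.286 without replicate 1 and 0.241 without replicate 2. So did a filter at 5 times the minimum (0.0522) and median-of-ratios scaling (0.0557). Of 11 pip transcripts, NM_079434 held 68.4% and 80.2% of the gene's level in piwi-embKD and 68.5% and 65.5% in white-embKD. It alone reached the level for testing and did not pass as its own feature (log2 change 1.06 ± 0.35 SE, limma adjusted p = 0.273).

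Of 13 other genes of the dorsal-ventral cue and Toll pathway, 1 rose and 0 fell, with a median log2 change of −0.20. At an unadjusted limma p under 0.05, 1 was higher and 4 were lower. At that level 1077 of all 8172 features tested were higher and 966 lower. The list's count of calls changed when either piwi-embKD library or white-embKD replicate 2 was omitted. The one that rose was wbl (windbeutel), which encodes a chaperone that the Pipe protein needs to leave the endoplasmic reticulum. It stood at 11 and 9.35 in the piwi-embKD libraries and 3.09 and 3.11 in the white-embKD libraries (log2 change 1.44 ± 0.19 SE, limma adjusted p = 0.00931). Omitting white-embKD replicate 2 ended the call of wbl (limma adjusted p = 0.0545). Of 4 genes for the terminal cue held in the eggshell, 0 passed in limma, and 1 did so at an unadjusted p under 0.05. Among the 4, fs(1)M3, fs(1)N and clos also belong to the vitelline membrane genes given below, so the lists share these values. The count of calls for the terminal cue changed when either piwi-embKD library was omitted. The gene at an unadjusted p under 0.05, tsl, had 3.36 and 3.15 normalized effective counts in piwi-embKD and 1.20 and 1.32 in white-embKD (log2 change 0.91 ± 0.24 SE, limma adjusted p = 0.0826).

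Cad99C (arm 3R) encodes a protocadherin of the microvilli through which follicle cells face the oocyte, and flies without it make a faulty vitelline membrane. Its level was 25.1 and 37.3 in the piwi-embKD libraries and 18.2 and 17.5 in the white-embKD libraries. Both piwi-embKD values were above both white-embKD values, but the piwi pair was wide, with a mean of 31.2 ± 8.66 against 17.9 ± 0.49 in white-embKD (SD, n = 2 each). Cad99C did not pass (change on the log2 scale 0.75 ± 0.20 SE, limma adjusted p = 0.0835). Omitting piwi-embKD replicate 1 brought it past the threshold (limma adjusted p = 0.00361), and omitting replicate 2 gave a change of 0.47 (limma adjusted p = 0.0542).

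Of 10 other microvillus and cadherin genes matched, 7 were tested and 2 rose. The count of calls changed when either piwi-embKD library or white-embKD replicate 1 was omitted. The cadherin gene Cad74A stood at 63.1 and 117 in the piwi-embKD libraries and 25.5 and 24.6 in the white-embKD libraries (log2 change 1.74 ± 0.27 SE, limma adjusted p = 0.0174). The cadherin gene Cad88C was low, at 6.64 and 13.2 in the piwi-embKD libraries and 1.48 and 2.58 in the white-embKD libraries (log2 change 1.80 ± 0.35 SE, limma adjusted p = 0.0361). Omitting white-embKD replicate 1 ended the call of Cad88C (limma adjusted p = 0.109), as did median-of-ratios scaling (0.0582) and a fit without the intensity trend (0.058).

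**Figure D2:**
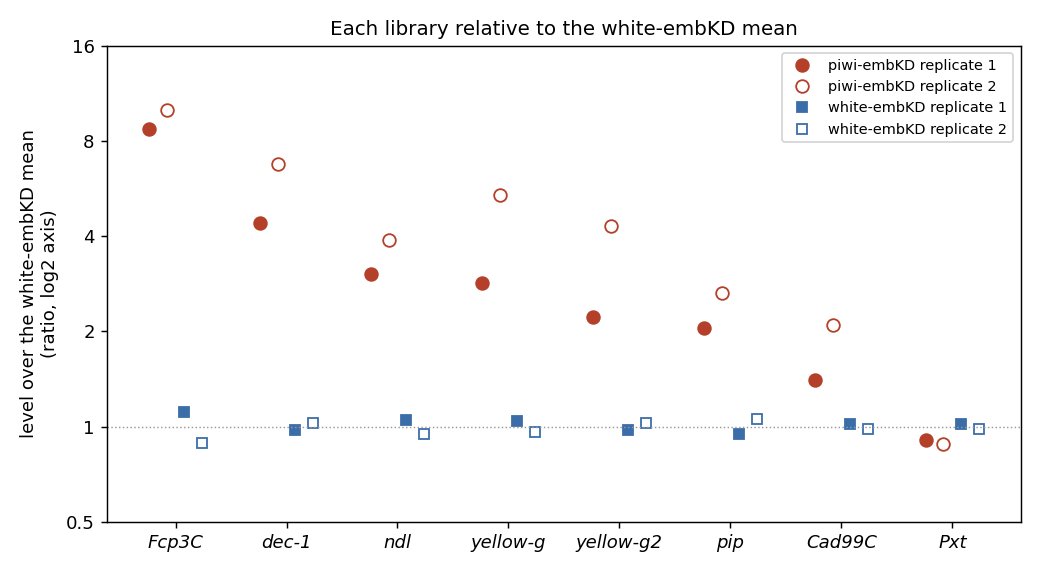
Level of each gene in each library divided by its white-embKD mean, on a log2 axis, for the 8 genes above 0. Fcp3C is the highest in both piwi-embKD libraries, at 8.73 and 10.1 times the white-embKD mean, and every gene but Pxt is above 1 in both.

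The piwi-embKD libraries differed from each other in the same direction for most of these genes. Replicate 2 was above replicate 1 in 7 of the 8 genes with a level above 0, where 41.4% of all features tested had replicate 2 above replicate 1. The ratio of replicate 2 to replicate 1 was 1.15 for Fcp3C, 1.29 for ndl and for pip, 1.49 for Cad99C, 1.54 for dec-1, 1.90 for yellow-g and 1.94 for yellow-g2, against 0.971 for Pxt. Among the chorion genes listed below this ratio ran from 0.961 to 1.72 with a median of 1.48, and among the vitelline membrane genes from 0.905 to 1.51 with a median of 1.24. Replicate 2 was also the piwi-embKD library with the lower piwi level. A link between the piwi level and these genes was not tested. Replicates 1 and 2 of piwi-embKD also differed in the sums of gut markers (27.8 and 0.65) and muscle markers (313 and 248). The sum of all 9 genes was 2891 and 3830.3 in piwi-embKD and 1813 and 1769.8 in white-embKD, a ratio of means of 1.88. Pxt made up most of the white-embKD sum, and without it the sums were 1692 and 2666 in piwi-embKD and 465 and 469.6 in white-embKD, a ratio of 4.66.

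**Figure D3:**
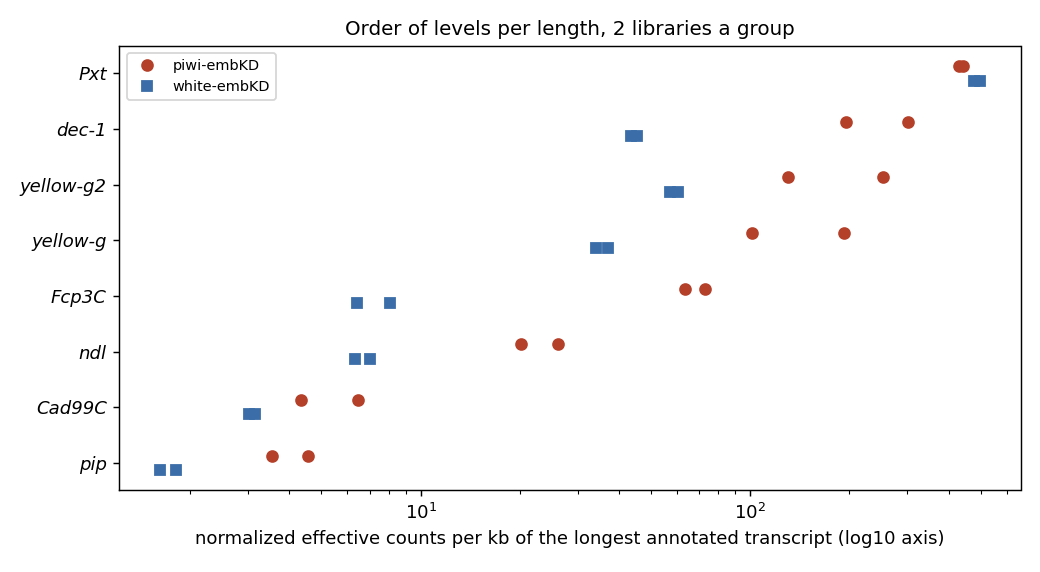
Level per kb of each gene's longest annotated transcript on a log10 axis, for the 8 genes above 0 (red circles piwi-embKD, blue squares white-embKD, 2 libraries each). Pxt is the highest in both groups and pip the lowest.

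Per kb of the longest annotated transcript, Pxt had the highest level in both groups, at 435 in piwi-embKD and 487 in white-embKD (normalized effective counts per kb, means). In piwi-embKD it was followed by dec-1 at 248, yellow-g2 at 191, yellow-g at 146, Fcp3C at 68.1, ndl at 23.1, Cad99C at 5.39 and pip at 4.04. The libraries of yellow-g2 overlapped those of dec-1 and those of yellow-g, while dec-1 and yellow-g did not overlap. Those of Cad99C and pip overlapped. In white-embKD the order after Pxt was yellow-g2 at 58.7, dec-1 at 44.4, yellow-g at 35.5, Fcp3C at 7.25, ndl at 6.67, Cad99C at 3.08 and pip at 1.72. There dec-1 stood below yellow-g2, without overlap, and Fcp3C and ndl overlapped.

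Most genes of the eggshell layers themselves were also higher in piwi-embKD. Of 9 chorion genes 9 rose (median log2 change 1.47), where 5.04% of all features tested rose. Fewer chorion genes were called when either white-embKD library was omitted. Of 12 vitelline membrane genes 9 rose (median log2 change 2.21), and this count varied when single libraries were omitted. The 3 others, fs(1)M3, clos and fs(1)N, had log2 changes of −0.19, −0.07 and 0.18 and did not pass (limma adjusted p = 0.565, 0.777 and 0.543), and 2 vitelline membrane genes were called lower without piwi-embKD replicate 2. When the filter on low values was dropped, 1 chorion gene and 0 vitelline membrane genes passed in limma. Both lists were known from earlier results of these libraries to be high and are given for scale. Chorion changes ended at 1.76 for Cp18, 1.74 for Cp7Fc and 1.54 for Cp7Fb. Vitelline membrane changes ended at 2.60 for Vml, whose protein is modified by Pipe, 2.57 for Vm34Ca and 2.55 for Vm32E. Fcp3C, at 3.07, stood above every gene of both lists, and pip, Cad99C and Pxt stood below every chorion gene. The difference between these genes was not tested.

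**Figure D4:**
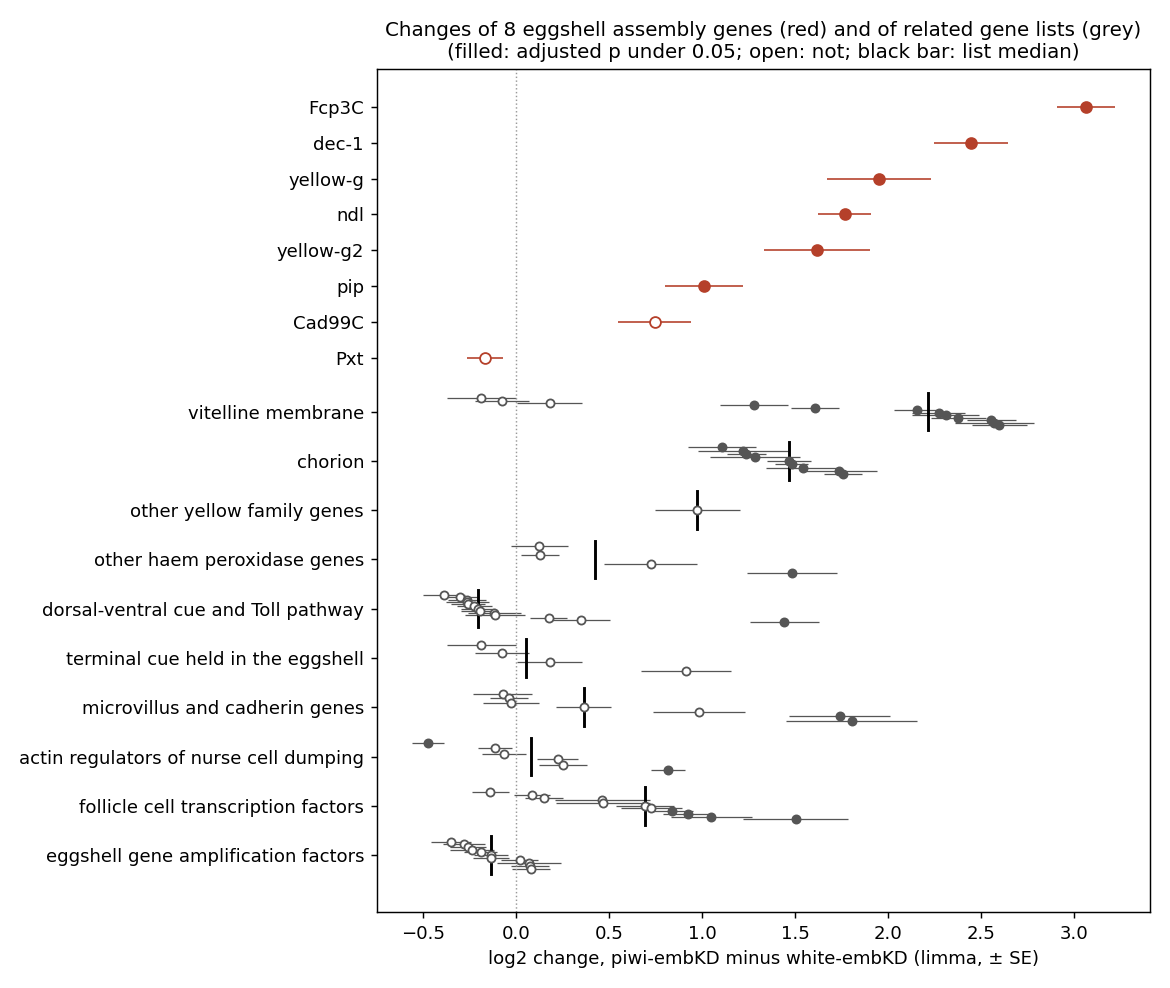
Log2 change (piwi-embKD minus white-embKD, ± SE) of the 8 tested eggshell assembly genes in red and of the tested genes of related lists in grey, with list medians as black bars. Fcp3C lies farthest right at 3.07 and Pxt lies at −0.16, and the chorion genes cluster around their median of 1.47.

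Among 11 tested transcription factors of follicle cells, 4 rose. The count fell when either white-embKD library was omitted and grew when either piwi-embKD library was. The ecdysone-induced factor Eip74EF stood at 9.94 and 18.0 in the piwi-embKD libraries and 4.31 and 3.87 in the white-embKD libraries (log2 change 1.5 ± 0.28 SE, limma adjusted p = 0.0318). The gene ct stood at 11.2 and 7.86 in piwi-embKD and 3.90 and 4.13 in white-embKD (log2 change 1.05, limma adjusted p = 0.0431), and tj at 34.5 and 30.0 in piwi-embKD and 16.6 and 16.3 in white-embKD (log2 change 0.92, limma adjusted p = 0.0124). Eip74EF, ct and tj each lost their call without either white-embKD library. Of 11 genes known to serve the amplification of eggshell gene regions in follicle cells, 0 passed in limma. At an unadjusted limma p under 0.05, 0 were higher and 3 lower, against 1077 and 966 of all 8172 features tested. The count of calls in this list changed when either piwi-embKD library was omitted. Orc1, a subunit of the origin recognition complex, had the largest change of these, −0.35 ± 0.11 SE (limma adjusted p = 0.117).

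Apart from the yellow-g pair, 1 of the neighbouring genes tested rose, where 5.04% of all features tested rose. Rexo5, beside ndl, and Adsl, which overlaps the span of Pxd, had log2 changes of −0.06 and 0.11 (limma adjusted p = 0.699 and 0.464). Beside ndl, jv stood at 2.49 and 4.67 in piwi-embKD and 1.79 and 1.55 in white-embKD, and was not called (log2 change 0.74, limma adjusted p = 0.2). Beside dec-1, Ir7b was too low to test, at 0.86 and 1.12 in piwi-embKD and 0.22 in both white-embKD libraries. On both sides of Fcp3C, CG18508 and CG3939 had log2 changes of 0.15 and −0.01 (limma adjusted p = 0.604 and 0.965). The gene MCU overlaps the span of ndl and stood at 83.3 and 86.1 in piwi-embKD and 108 and 130.3 in white-embKD (log2 change −0.48, limma adjusted p = 0.0703). The span of pip overlaps fal (log2 change −0.31, limma adjusted p = 0.131), and that of Cad99C overlaps dgt1 (log2 change −0.43, limma adjusted p = 0.0722). Beside Pxt, osa rose (log2 change 0.55, limma adjusted p = 0.0258), and its call was lost without either white-embKD library. The antisense gene asRNA:CR43615 overlaps dec-1 and was listed at 0 in every library.

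For the genes that rose other than pip, the gene with the most similar pattern over the 4 libraries was taken as the nearest by Euclidean distance between centred log2 values, among 7771 candidates. For dec-1 it was CG9747, at 38.6 and 56.9 in piwi-embKD and 7.79 and 7.91 in white-embKD (distance 0.07). For ndl it was CG31661, at 56.8 and 77.3 in piwi-embKD and 19.9 and 17.3 in white-embKD (distance 0.06). For yellow-g it was CG42705, at 2.35 and 5.20 in piwi-embKD and 0.13 and 0 in white-embKD (distance 0.16). For yellow-g2 it was nAChRalpha1, which did not pass (limma adjusted p = 0.0836), at 1.22 and 3.20 in piwi-embKD and 0 and 0.15 in white-embKD (distance 0.14). For Fcp3C it was CG15236, at 6.18 and 6.55 in piwi-embKD and 0.08 and 0.04 in white-embKD (distance 0.33). These 3 were near 0 in white-embKD, and their likeness rests on the added constant of 0.995. With a constant of 0.0995 the log2 change was 4.58 for CG42705 against 1.97 for yellow-g, 3.71 for nAChRalpha1 against 1.63 for yellow-g2, and 5.31 for CG15236 against 3.22 for Fcp3C.

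Markers of other tissues also differed between the groups. The sum of 8 gut markers was 27.8 and 0.65 in piwi-embKD and 169.7 and 150.0 in white-embKD, and 6 of the 8 fell. The sum of 8 muscle markers was 313 and 248 in piwi-embKD and 180 and 171 in white-embKD, and 4 of the 8 rose. Of all features tested, 5.04% rose and 1.65% fell. Of 9 follicle cell markers, 7 were tested and 5 rose, the yolk protein genes Yp1, Yp2 and Yp3 among them. The markers tj, cas, eya, slbo and mirr are also in the list of follicle cell transcription factors. The rise of tj is therefore counted in both lists. The median log2 change of the 7 was 0.92. Of 8 germline markers, 0 passed in limma, with 1 higher and 3 lower at an unadjusted p under 0.05. At that unadjusted level, 1077 of all 8172 features tested were higher and 966 lower. The part of these differences in the levels of the eggshell assembly genes was not tested. With a different hairpin line in each group, line background and the knockdown of piwi cannot be told apart.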

How the data were processed

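Each library has a table of 29637 targets, and per the file headers the deposited signal is a normalized effective count, an estimate that divides fragments matching several targets among them. The submitters' processing notes name Bowtie2, STAR, Cufflinks and build dm3, with no role. No source used here gives the annotation, the strand setting or the origin of the normalization factor. Values of overlapping, antisense or near-identical genes are therefore uncertain. Per the labels' protocols, ribosomal RNA was removed from 4 µg of total RNA and the rest sequenced as paired reads of 150 nt, in 2 replicates called independent in the series' design text.

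The smallest step between values was taken as 1e-06 of a count, an assumption that puts depth at 16194219 and 16445363 effective counts in piwi-embKD and 20025084 and 19271510 in white-embKD. Between 3.76% and 4.18% of the values worth 0.5 to 20 counts were whole (within 0.02), so no count test was run. Limits for a count of 0 cover counting error only.

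RefSeq accessions were matched to symbols with the NCBI Release 6 table (28233 of 29511 transcripts, 95.7%), which is not the authors' build and served for names, chromosome arms and neighbours. The symbol there for dec-1 is dec. The names Sip1 and nos matched more than 1 gene and were left out. Transcript lengths came from the Ensembl BDGP6.54 annotation. The comparison used limma 3.58.1 (R 4.3.3) on log2(value + 0.995) with its trend option, over the 8172 features with a mean of at least 0.995 (7779 genes, 107 transposon families, 286 unmatched transcripts). Two-sided p-values were given a Benjamini-Hochberg adjustment across these features. Fold changes on this scale understate changes at low levels.

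Members and gene lists were chosen with earlier results of these data known. Named genes were the members, the hairpin targets, up to 3 called genes with the largest change per list (or the largest if none was called), the neighbours, and the nearest pattern to each called member, of which that for pip is not reported here. Promoter motifs, planned in the design, were not analysed here.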

Additional observations from a re-analysis of the deposited data

How the results depend on the processing

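Over 13 alternatives, the 8 tested eggshell assembly genes gave 104 values, and none changed direction. Most of these directions were fixed in advance. Settings of the filter, trend or block leave the log2 change as it is. Groups that do not overlap also keep their direction when a library is omitted or the added constant is changed. Of these genes 6 passed in the reported fit, 0 without the filter and 3 with each transcript as its own feature (a gene's highest one). Fits that omit a library gave 5 to 7. Over all features 547 passed, 162 without the filter, 91 with each transcript as its own feature and 827 with the replicate block. Fits that omit a library gave 213 to 2793, with 213 and 242 without white-embKD replicates 2 and 1, and 2793 and 1488 without piwi-embKD replicates 1 and 2. Without piwi-embKD replicate 1 more features were lower (1485) than higher (1308). In each of these fits the lone library is assumed to vary like the other group. Of the transcripts of these genes 3 passed as features of their own, 0 without the filter, 0 without the intensity trend and 1 in each fit that omits a library. Of the other genes named, CG3939 changed sign, to 0.0018 with median-of-ratios scaling, and ran from −0.22 to 0.19 in fits that omit a library. The cause of these changes was not tested. The first library of each group has no number in its title, so replicate numbers do not pair the libraries, and deviations of same-numbered libraries correlated at 0.06 across features. With the number as a block, 7 of the eggshell assembly genes passed, Cad99C among them (limma adjusted p = 0.0181). With 2 libraries a group, p-values measure the spread between these samples only.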
